A study of Mus musculus with 8 samples.

Results

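The AP-1 transcription factors of the mouse retina are described here: the Fos genes Fos, Fosb, Fosl1 and Fosl2, the Jun genes Jun, Junb and Jund, and Atf3. The family was chosen by measured values, the higher counts of Fos and Junb in the knockout libraries of these data, and its 8 members were taken by gene symbol from a table of 26824 genes. Each symbol occurred on 1 row. Retinas of 3 wild-type mice (libraries WT 1 to WT 3) and of 5 mice labelled Kv8.2 KO (libraries KO 2 to KO 6) were sequenced as total RNA at 1 month of age. Each library came from the 2 pooled retinas of 1 mouse, and no treatment was given. Kv8.2 is the product of Kcnv2, a potassium channel subunit of rods and cones that forms channels only together with other subunits. The knockout allele and the strain are not given in the sources used here. The series text states that its authors left 2 knockout samples out without naming them, so all 8 libraries were compared.

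AP-1 is a dimer of proteins with a basic region that holds DNA and a leucine zipper that holds the partner. Jun proteins pair with each other or with Fos proteins, and Fos proteins need a Jun-type partner. Fos, Fosb, Junb and Atf3 are immediate early genes, transcribed within minutes of synaptic activity, growth factors, light or injury without new protein synthesis, whereas Jund is made more steadily. In the retina these genes are known to respond to light and to stress in neurons and in Muller glia, the supporting cells that span the tissue.

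Libraries held 17759146 to 25188870 counts. Levels are given as counts per 1000000 counts (CPM), after scaling by edgeR's TMM factors (trimmed mean of M values). Kcnv2 checks the labels: it was at 519, 550 and 526 CPM in WT 1 to WT 3 and at 584, 447, 398, 408 and 409 CPM in KO 2 to KO 6. The gene-level count therefore does not identify the knockout libraries, which are called by their labels. Among the libraries labelled KO, KO 4 to KO 6 were close to each other over all genes (chi-square per degree of freedom 5.38 to 6.28 between pairs), whereas KO 2 and KO 3 differed from them (38.8 to 100) and from each other (96). The share of mitochondrial counts was 3.03% to 3.70% in KO 4 to KO 6, 5.23% and 6.52% in KO 3 and KO 2 and 7.09% to 7.92% in WT. The labels name no batch. The split into KO 2 and KO 3 and into KO 4 to KO 6 comes from the data, and values are given for each against WT. KO 3 held 42500 CPM of 9 lens genes, against at most 1217 CPM in any other library. WT 3 alone held 2132 counts of the Y-linked Ddx3y, with at most 3 in each of the others.

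Promoter sequences are shown first, because several family members are switched on through the same short elements. RefSeq (GRCm38.p6) gave a window for 7 of the 8 members, all but Fosl1. The 150 bases just upstream of the start site are printed 5′ to 3′ on the gene's strand for the 5 members with the largest fold changes among those described below. Capitals mark TGACG, the core of the cyclic AMP response element (CRE), on either strand (CGTCA), the element TGACATCA known from the Jun promoter, and the TATA box TATAAA.
Fos, chr12:85473740-85473889, plus strand: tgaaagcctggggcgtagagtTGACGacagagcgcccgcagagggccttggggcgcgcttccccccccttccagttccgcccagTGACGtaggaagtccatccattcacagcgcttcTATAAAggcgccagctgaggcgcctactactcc
Fosb, chr7:19310046-19310195, minus strand: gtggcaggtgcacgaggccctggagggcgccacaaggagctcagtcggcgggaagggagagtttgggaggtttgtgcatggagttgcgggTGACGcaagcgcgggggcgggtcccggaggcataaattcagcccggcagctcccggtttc
Jun, chr4:95052223-95052372, minus strand: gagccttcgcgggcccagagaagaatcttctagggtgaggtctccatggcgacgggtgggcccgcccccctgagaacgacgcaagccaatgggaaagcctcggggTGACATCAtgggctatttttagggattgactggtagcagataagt
Junb, chr8:84978749-84978898, minus strand: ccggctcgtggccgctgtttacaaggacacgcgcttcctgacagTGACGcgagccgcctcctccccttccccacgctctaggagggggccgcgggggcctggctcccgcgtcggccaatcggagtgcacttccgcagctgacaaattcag
Atf3, chr1:191183334-191183483, minus strand: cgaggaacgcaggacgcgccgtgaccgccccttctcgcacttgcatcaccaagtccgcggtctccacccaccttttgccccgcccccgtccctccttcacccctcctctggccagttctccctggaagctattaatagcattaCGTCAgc

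Motifs were searched on both strands of the 250 bases upstream of each start site, in the 7 members and in all 32851 windows of the RefSeq table. The core TGACG was found in 4 of the 7 (Fos, Fosb, Junb and Atf3) and in 17.8% of all windows. In Fos it lay at -129 to -125 and at -66 to -62, in Fosb at -60 to -56, in Junb at -106 to -102 and in Atf3, on the other strand, at -7 to -3. The 8-base form TGACGTCA, which contains the core, was in none of the 7 and in 1.55% of all windows. TGACATCA was in Jun alone of the members, at -45 to -38, and in 2.93% of all windows. The AP-1 site TGACTCA was in none of the 7 and in 4.46% of all windows, the STAT motif TTCNNNGAA in none and in 7.02%, and the CArG box bound by serum response factor in none and in 1.47%. The GC box GGGCGG was in 5 of the 7 (Atf3, Fos, Fosb, Fosl2 and Jun) and in 32.7% of all windows. The TATA box was in Fos alone, at -33 to -28, and in 12.4% of all windows. The CCAAT box was in Jun and Junb and in 33.8% of all windows. These matches are letters in a window and do not show binding. Sequence more than 250 bases upstream was not searched for Fos or any other member, so an element named as absent may lie there. The RefSeq start site of Jund, 70697739 on chromosome 8, lies upstream of the gene model in GENCODE M21 (70698949 to 70700616), and those of Atf3 and Fosl2 lie inside the longer GENCODE genes (191170296 to 191218039 on chromosome 1 and 32135801 to 32157842 on chromosome 5), so for these genes the window may not be the promoter in use in retina.

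Fos encodes c-Fos, the founding member of the family and a standard marker of neuronal activation. Fos (ENSMUSG00000021250, chromosome 12, 85473890 to 85477273 on GRCm38) was at 11.9, 15.2 and 15.2 CPM in WT 1 to WT 3. It was at 34.8, 38.2, 45.6, 43.1 and 32.8 CPM in KO 2 to KO 6. Every library labelled KO was above every WT library, and the lowest of them (KO 6) was 2.16 times as high as the highest WT library. The mean over WT was 14.1 ± 1.90 CPM (SD, n = 3) and over KO 2 to KO 6 it was 38.9 ± 5.40 CPM (SD, n = 5), a log2 fold change of 1.46 (SE 0.14), or 2.76-fold. KO 6 was lowest and KO 4 highest, so KO 4 to KO 6 overlapped KO 2 and KO 3. The log2 fold change was 1.37 (SE 0.13) for KO 2 and KO 3 against WT and 1.53 (SE 0.13) for KO 4 to KO 6 against WT. Both comparisons use the same WT libraries.

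Fosb, whose protein and its truncated form accumulate in neurons under repeated stimulation, was at a lower level than Fos in every library. Fosb (ENSMUSG00000003545, chromosome 7, 19302696 to 19310051) was at 2.79, 2.86 and 2.97 CPM in WT 1 to WT 3, the tightest WT group of the family, with a coefficient of variation (CV, the SD as a percent of the mean) of 3.13%. It was at 6.68, 5.74, 6.20, 5.51 and 4.96 CPM in KO 2 to KO 6. No library labelled KO overlapped WT, and here KO 2 was highest, while KO 5 and KO 6 were lowest. The log2 fold change was 1.02 (SE 0.16), and it was 1.11 (SE 0.20) for KO 2 and KO 3 and 0.96 (SE 0.17) for KO 4 to KO 6, each against WT. Gene-level counts cannot separate full-length Fosb from its truncated splice form.

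Fosl2 (Fra-2) and Fosl1 (Fra-1) lack the strong activation domain of Fos and usually act later. Fosl2 (ENSMUSG00000029135, chromosome 5, 32135801 to 32157842) was at 8.27, 9.53 and 9.36 CPM in WT 1 to WT 3 and at 10.7, 12.9, 11.2, 14.2 and 16.1 CPM in KO 2 to KO 6. The groups did not overlap, but the lowest library labelled KO was only 1.12 times as high as the highest WT library. Its log2 fold change was 0.52 (SE 0.16), with 0.38 (SE 0.16) for KO 2 and KO 3 and 0.62 (SE 0.14) for KO 4 to KO 6. Fosl1 (ENSMUSG00000024912, chromosome 19, 5447547 to 5455946) was close to the detection limit, with 0, 3 and 3 counts in WT 1 to WT 3 and 1, 8, 2, 11 and 1 counts in KO 2 to KO 6. Taking 3 counts in a library as the floor (0.119 to 0.169 CPM), only KO 3 and KO 5 were above it. Fosl1 did not pass the filter on low counts. Its log2 fold change was 1.19 (SE 1.06) with no filter and 1.27 (SE 1.201) in DESeq2, called in neither, and a difference was not detectable at this depth. Fosl1 overlaps Ccdc85b on the other strand, which was at 33.4 to 36.9 CPM in WT and 43.7 to 53.7 CPM in the libraries labelled KO.

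Jun encodes c-Jun, the main partner of Fos and a target of the JNK stress kinases in damaged neurons. Jun (ENSMUSG00000052684, chromosome 4, 95049034 to 95052222, a gene with no intron) was at 35.3, 31.4 and 31.9 CPM in WT 1 to WT 3. It was at 47.3, 46.7, 60.9, 65.9 and 69.7 CPM in KO 2 to KO 6. All 5 libraries labelled KO were above WT, and KO 4 to KO 6 were above KO 2 and KO 3. The log2 fold change was 0.82 (SE 0.15), with 0.52 (SE 0.10) for KO 2 and KO 3 against WT and 1.01 (SE 0.08) for KO 4 to KO 6 against WT. The antisense gene Junos overlaps Jun and was at 1.58 to 3.02 CPM in the 8 libraries. Counting by strand is not stated in the sources used here, so reads of overlapping genes cannot be told apart.

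Junb, a Jun protein that activates transcription more weakly than c-Jun and can restrain it, was the Jun gene with the largest difference. Junb (ENSMUSG00000052837, chromosome 8, 84974484 to 84978718) was at 9.09, 10.3 and 8.82 CPM in WT 1 to WT 3. It was at 18.3, 17.4, 25.6, 25.5 and 26.9 CPM in KO 2 to KO 6. The lowest library labelled KO (KO 3) was 1.68 times as high as the highest WT library, and KO 4 to KO 6 formed a tight set above KO 2 and KO 3. The mean over WT was 9.41 ± 0.805 CPM (SD, n = 3) and over KO 2 to KO 6 it was 22.7 ± 4.52 CPM (SD, n = 5), a log2 fold change of 1.27 (SE 0.18), or 2.41-fold. It was 0.92 (SE 0.13) for KO 2 and KO 3 and 1.48 (SE 0.09) for KO 4 to KO 6, each against WT. Junb overlaps Prdx2, an abundant gene on the other strand, which was at 123 to 148 CPM in WT and 132 to 170 CPM in the libraries labelled KO.

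Jund, the steadily expressed Jun gene, differed least. Jund (ENSMUSG00000071076, chromosome 8, 70698949 to 70700616, a gene with no intron) was at 48.4, 52.4 and 58.0 CPM in WT 1 to WT 3 and at 67.6, 66.7, 61.0, 58.6 and 85.2 CPM in KO 2 to KO 6. The groups nearly touched, since the lowest library labelled KO (KO 5) was 1.01 times as high as the highest WT library (WT 3). Its log2 fold change was 0.36 (SE 0.12). The antisense gene Gm11175 overlaps Jund and had 0 to 2 counts in each WT library and in KO 2 and KO 3, but 44, 110 and 42 counts in KO 4, KO 5 and KO 6, and reads of this pair cannot be told apart either.

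Atf3, a stress-induced member of the ATF branch that pairs with Jun proteins, had a fold change as large as that of Fos but wider spread. Atf3 (ENSMUSG00000026628, chromosome 1) was at 3.01, 4.46 and 2.66 CPM in WT 1 to WT 3, a CV of 28.3%, and at 7.76, 6.22, 12.6, 10.1 and 10.2 CPM in KO 2 to KO 6. The groups did not overlap. KO 4 to KO 6 were above KO 2 and KO 3. The log2 fold change was 1.47 (SE 0.26), with 1.05 (SE 0.26) for KO 2 and KO 3 and 1.71 (SE 0.19) for KO 4 to KO 6, each against WT.

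**Figure D1:**
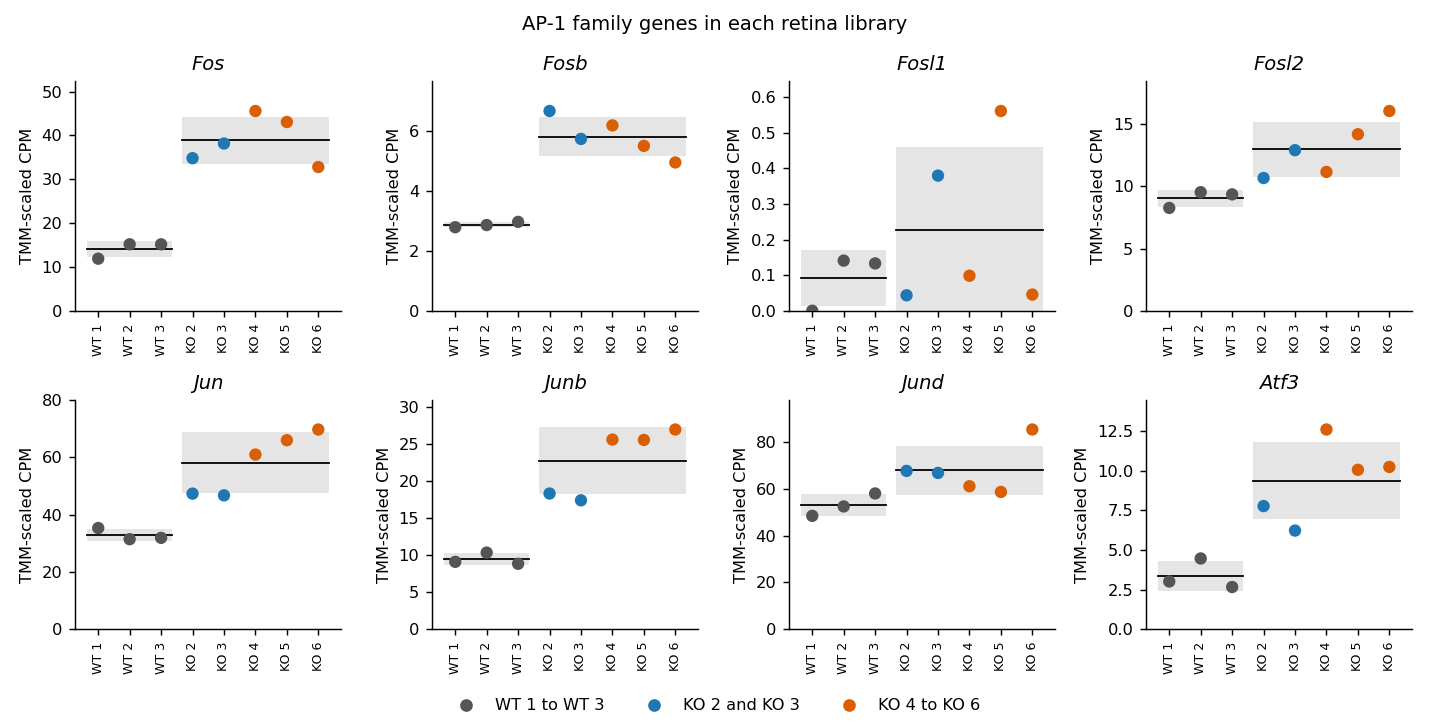
TMM-scaled CPM of the 8 AP-1 genes (vertical axes, each from 0) in the 3 WT libraries (grey), KO 2 and KO 3 (blue) and KO 4 to KO 6 (orange); lines are group means and grey bands 1 SD. For all members but Fosl1, each library labelled KO lies above each WT library, with the widest gap in Fos (32.8 CPM or more against 15.2 or less) and almost none in Jund (58.6 against 58.0).

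Of the 8 members, 7 passed the filter on low counts. Of these 7, 5 passed an adjusted p-value of 0.05 in edgeR's quasi-likelihood test (Fos, Fosb, Jun, Junb and Atf3), all higher in the libraries labelled KO, while 4.74% of all 20167 tested genes were called higher. All 7 had every library labelled KO above every WT library, as did 10.8% of all tested genes. Because the family was chosen for the higher Fos and Junb in this same contrast, the counts describe the members and nothing is read from them. With KO 2 and KO 3 alone against WT, Fos, Fosb and Junb were called, where 0.624% of all tested genes were called higher. With KO 4 to KO 6 alone against WT, all 7 were called, where 22.3% of all tested genes were called higher. Leaving out WT 1 kept the call of Fos and Junb alone, leaving out WT 2 that of Fos, Junb and Atf3, and leaving out WT 3 that of Fos, Fosb and Junb. Of all genes tested in those fits, 0.424%, 0.417% and 0.658% were called higher. Without KO 2 or without KO 3, Fosl2 was called as well, where 7.66% and 12.2% of all tested genes were called higher. The log2 fold changes without KO 3, the library with lens transcripts, were 1.48 for Fos and 1.36 for Junb.

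Relative to the WT mean, the members did not order the libraries labelled KO in one way. Jun, Junb and Atf3 were higher in each of KO 4 to KO 6 than in KO 2 and KO 3, as were 23.8% of all tested genes, whereas Fos, Fosb, Fosl2 and Jund overlapped between these sets. Fos ranged from 2.33 times the WT mean in KO 6 to 3.24 times in KO 4. Fosb was highest in KO 2, at 2.32 times the WT mean, and lowest in KO 6, at 1.72 times. Junb was at 1.85 to 1.94 times the WT mean in KO 3 and KO 2 and at 2.71 to 2.86 times in KO 4 to KO 6. Of the tested members, Atf3 ranged most widely, from 1.84 times in KO 3 to 3.73 times in KO 4. KO 6 had the lowest Fos and Fosb of the 5 libraries labelled KO, but the highest Jun, Junb, Jund and Fosl2.

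**Figure D2:**
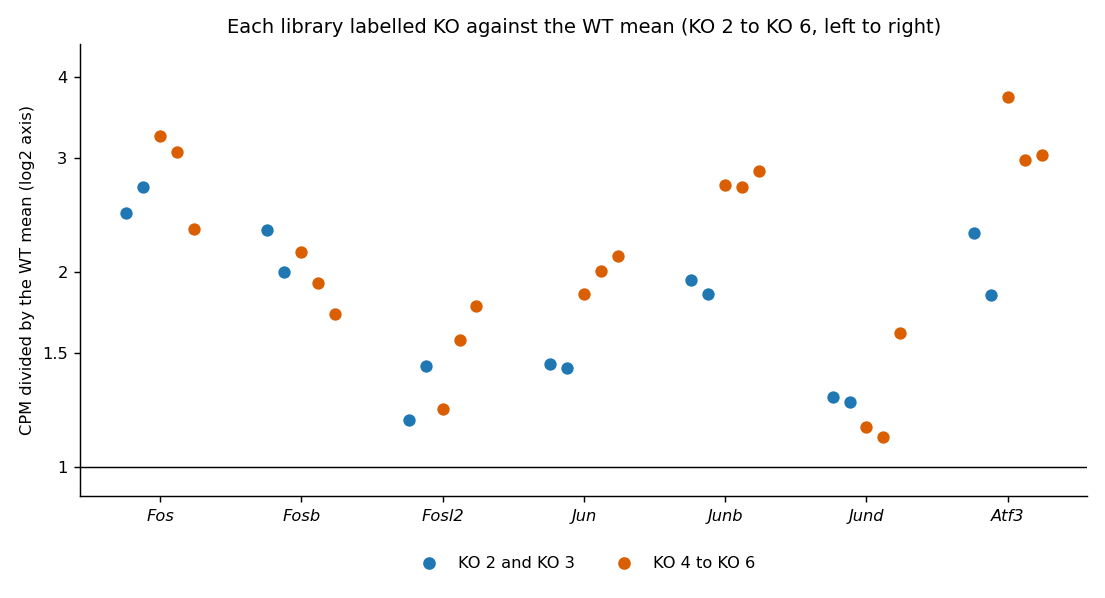
CPM of each library labelled KO divided by the WT mean (log2 axis) for the 7 members that passed the filter; points from left to right are KO 2 to KO 6, blue for KO 2 and KO 3 and orange for KO 4 to KO 6. Jun, Junb and Atf3 have all orange points above the blue ones, Fosb has its highest point in KO 2 (2.32), and Jund stays between 1.11 and 1.61.

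The members differ in base composition, and fold changes in these data were related to it. Over the 18028 tested genes found in GENCODE M21, Spearman's rho of log2 fold change with transcript GC content was 0.449 (genes are not independent replicates), and the median GC content was 50.0%. All 8 members were above this median, from 50.9% in Atf3 to 62.7% in Junb and 67.1% in Jund. With each library corrected for GC content, the log2 fold change was 1.29 (SE 0.14) for Fos, 0.85 (SE 0.18) for Fosb, 0.98 (SE 0.12) for Junb, 0.64 (SE 0.09) for Jun, 1.42 (SE 0.25) for Atf3 and 0.41 (SE 0.14) for Fosl2. The same 5 members were called, where 4.30% of the genes tested in that fit were called higher. Jund, the most GC-rich member, was at 0.04 (SE 0.12) after the correction, against 0.36 without it. The upstream promoter windows were also GC-rich, at 58.4% in Fos to 68.8% in Fosb, with Jund at 47.6% and a median of 52.4% over all windows.

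**Figure D3:**
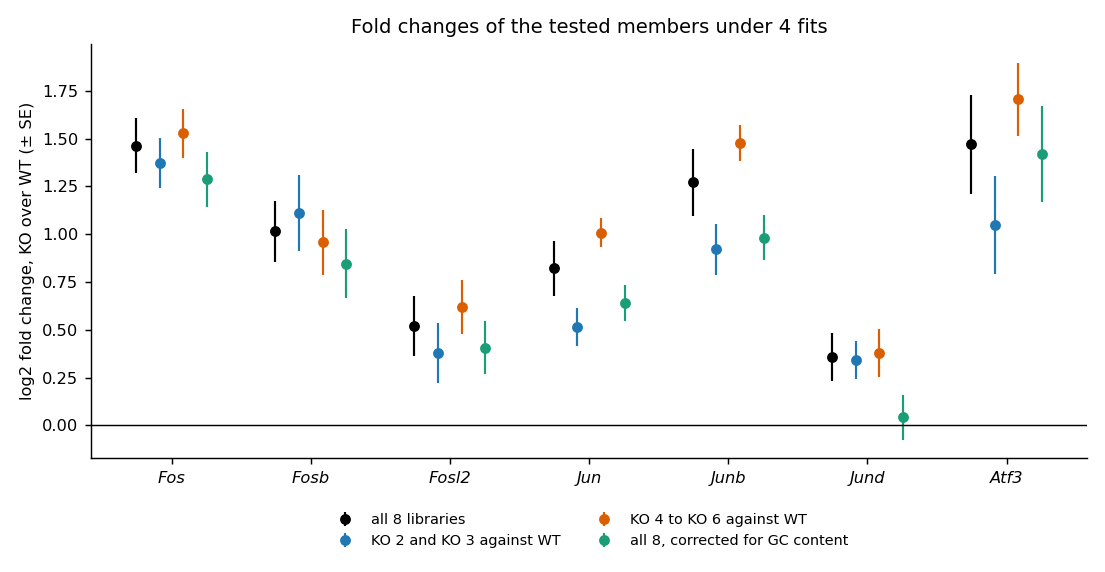
Log2 fold change of the libraries labelled KO over WT with its SE (vertical axis) for the 7 tested members, from the fit of all 8 libraries (black), KO 2 and KO 3 against WT (blue), KO 4 to KO 6 against WT (orange) and all 8 libraries corrected for GC content (green). Fos lies between 1.29 and 1.53 in all 4 fits, Junb moves from 0.92 to 1.48, and Jund is at 0.04 after GC correction.

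The level of each member per kilobase of transcript is described in the WT libraries, which are 1 arm of the contrast that chose the family. Taking the median length of a gene's annotated transcripts, Jund was the most abundant, at 31.7 ± 2.88 CPM per kb (SD, n = 3). Fos followed at 17.3 ± 2.33, Jun at 10.3 ± 0.666, Junb at 8.18 ± 0.700, Fosl2 at 2.61 ± 0.198, Atf3 at 1.77 ± 0.501, Fosb at 0.792 ± 0.0248 and Fosl1 at 0.184 ± 0.160 CPM per kb (SD, n = 3 for each). The WT ranges of neighbours in this order did not overlap. The place of Fos depends on the length taken, because its annotated transcripts have a median of 814.5 bases and a longest of 2108 bases. With the longest transcript, Fos was at 6.67 ± 0.900 CPM per kb, below Jun at 10.3, and its range (5.63 to 7.20) overlapped that of Junb (4.88 to 5.71). Atf3 (1.34 to 2.25) then overlapped Fosl2 (1.26 to 1.46). Jund stayed highest, and Fosb and Fosl1 lowest, with either length.

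The make-up of the family differed between the groups as the single genes did. With the longest transcript length, Fos made up 73.8% to 75.9% of the summed CPM per kb of the 4 Fos genes in WT and 80.4% to 86.4% in the libraries labelled KO. Fosl2 made up 15.1% to 16.6% in WT and 6.82% to 12.7% in the libraries labelled KO. Of the 3 Jun genes, Jund made up 64.3% to 70.0% in WT and 50.2% to 62.2% in the libraries labelled KO, and Junb 9.83% to 12.2% and 15.0% to 20.2%. Jund remained the largest part of the Jun genes in every library. KO 4 and KO 5 had the smallest Jund share, at 52.4% and 50.2%.

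**Figure D4:**
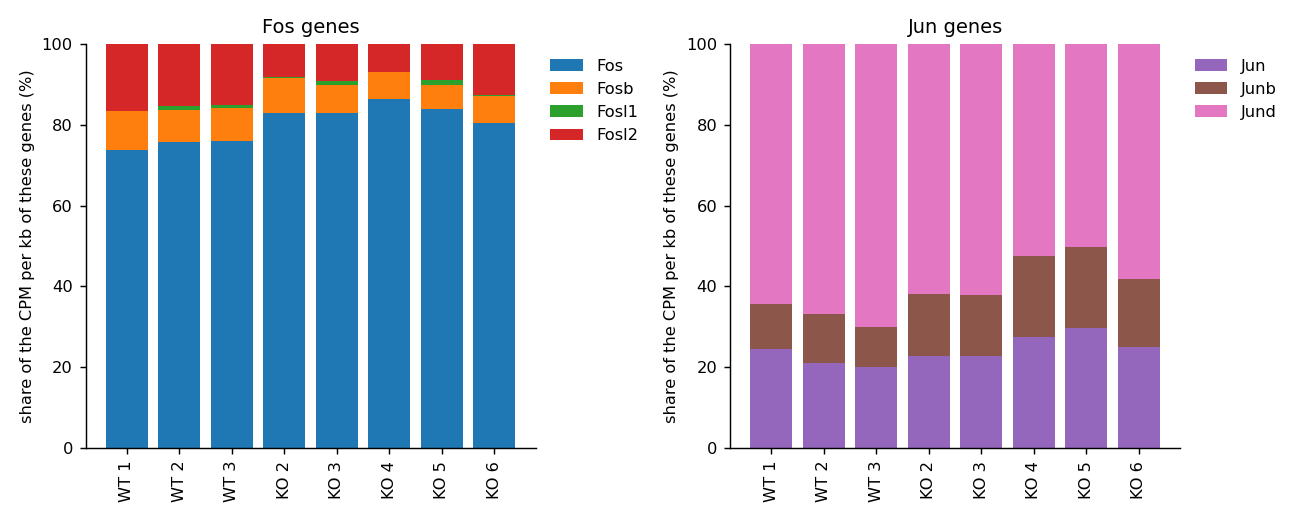
Share of each gene (percent, stacked bars from 0 to 100) in the summed CPM per kb of the 4 Fos genes (left) and the 3 Jun genes (right) in each library, with the longest transcript as length. Fos takes 80.4% or more of the Fos genes in each library labelled KO and at most 75.9% in WT, and Jund remains above 50% of the Jun genes throughout.

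Genes around AP-1 were taken as 5 lists: dimer partners, upstream kinases and transcription factors, genes of feedback and RNA or protein turnover, genes reported as AP-1 targets, and other immediate early genes. Of their 83 genes, 71 were tested, and edgeR called 10 higher and 2 lower over all 8 libraries, beside 4.74% and 2.84% of all tested genes. The median log2 fold change was 0.13 over the 71 genes and 0.00 over all tested genes. After GC correction 7 were called higher and 4 lower, beside 4.30% and 2.75%. With KO 2 and KO 3 alone against WT, 1 of the 71 was called (Ccnd1, higher), beside 0.891% of all tested genes called in either direction. With KO 4 to KO 6 alone against WT, 30 were called higher and 17 lower, beside 22.3% and 20.5%.

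Of the dimer partners, the Maf, JDP, BATF and ATF2-type leucine zipper proteins, 1 of 10 tested genes was called. Mafk, a small Maf protein without an activation domain, rose from 6.08, 7.19 and 7.23 CPM in WT 1 to WT 3 to between 8.93 and 10.6 CPM in the libraries labelled KO. Its log2 fold change was 0.52 (SE 0.13, edgeR adjusted p-value 0.0391). With KO 2 and KO 3 alone the log2 fold change was 0.58 (SE 0.16, edgeR adjusted p-value 0.130), and after GC correction it was 0.34 (SE 0.15, edgeR adjusted p-value 0.176). With no filter the edgeR adjusted p-value was 0.0533. Nrl, the rod-determining Maf protein and by far the most abundant partner, averaged 1635 ± 101 CPM over WT (SD, n = 3) and 1365 ± 127 CPM over KO 2 to KO 6 (SD, n = 5), a log2 fold change of -0.26 (SE 0.11, edgeR adjusted p-value 0.153). After GC correction, where 2.75% of the genes tested were called lower, Nrl was one of them, at -0.41 (SE 0.09, edgeR adjusted p-value 0.0280). Nrl was called lower as well for KO 4 to KO 6, at -0.22 (edgeR adjusted p-value 0.0153), as were 20.5% of all tested genes. In limma voom with quality weights it was called at -0.23 (adjusted p-value 0.00891). Mafg had a log2 fold change of 0.41 (SE 0.13, edgeR adjusted p-value 0.0732), with 0.17 after GC correction (edgeR adjusted p-value 0.364) and 0.53 for KO 4 to KO 6 (edgeR adjusted p-value 0.000121). Mafg was also called without KO 2 (edgeR adjusted p-value 0.0125), in DESeq2 (adjusted p-value 0.0168) and in limma voom with quality weights (adjusted p-value 0.000501). Batf, Batf2 and Batf3 were not analysed here.

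Of the upstream kinases and factors, the MAP kinases and the serum response and CREB factors that drive Fos transcription, 1 of 22 was called. Mrtfa, an actin-regulated cofactor of serum response factor, rose from 17.8 ± 1.13 CPM over WT (SD, n = 3) to 27.1 ± 3.60 CPM over KO 2 to KO 6 (SD, n = 5), a log2 fold change of 0.61 (SE 0.13, edgeR adjusted p-value 0.0255). It was above WT in all 5 libraries labelled KO, and highest in KO 4 to KO 6 (28.4 to 31.2 CPM). Its log2 fold change was 0.37 after GC correction (edgeR adjusted p-value 0.0261) and 0.40 for KO 2 and KO 3 alone (edgeR adjusted p-value 0.142). Creb1, the cyclic AMP-responsive factor that binds the CRE, had a log2 fold change of -0.09 (SE 0.16, edgeR adjusted p-value 0.768). It was at 143 to 144 CPM in WT, at 184 CPM in KO 2, at 150 CPM in KO 3 and between 109.6 and 119.5 CPM in KO 4 to KO 6, so the libraries labelled KO lay on both sides of WT. For KO 4 to KO 6 against WT it was called lower, at -0.32 (edgeR adjusted p-value 0.000609).

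Of the feedback and turnover genes, 3 of 12 tested genes were called, all higher. Dusp4 and Dusp5, nuclear phosphatases that switch off MAP kinases, had log2 fold changes of 0.52 (SE 0.11) and 0.53 (SE 0.11), with edgeR adjusted p-values of 0.0280 and 0.0258. Dusp4 was at 41.1, 44.9 and 41.9 CPM in WT and at 56.9, 50.8, 59.0, 70.3 and 69.2 CPM in KO 2 to KO 6. After GC correction Dusp4 was at 0.34 and Dusp5 at 0.33 on the log2 scale (edgeR adjusted p-values 0.0213 and 0.0369), and for KO 2 and KO 3 alone they were at 0.34 and 0.38 (edgeR adjusted p-values 0.145 and 0.158). Spry4, an inhibitor of receptor tyrosine kinase signalling, had a log2 fold change of 0.84 (SE 0.22, edgeR adjusted p-value 0.0449), but KO 2 (10.6 CPM) was close to WT 2 (10.5 CPM). Its edgeR adjusted p-value was 0.0662 by library size alone and 0.0517 with no filter, and for KO 2 and KO 3 alone its log2 fold change was 0.41 (edgeR adjusted p-value 0.272). Zfp36l2, which promotes decay of AU-rich mRNAs, and Spred1 had log2 fold changes of 0.19 (SE 0.09) and 0.02 (SE 0.18), with edgeR adjusted p-values of 0.214 and 0.967.

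Of the reported targets, 2 of 12 tested genes were called higher and 1 lower. Ccnd1, cyclin D1, rose from between 30.3 and 32.6 CPM in WT to 44.6, 49.2, 48.3, 47.9 and 40.4 CPM in KO 2 to KO 6, a log2 fold change of 0.56 (SE 0.09, edgeR adjusted p-value 0.00927). It was 0.59 for KO 2 and KO 3 alone (edgeR adjusted p-value 0.0422) and 0.38 after GC correction (edgeR adjusted p-value 0.0761). Vim, the intermediate filament vimentin of Muller glia, had a log2 fold change of 1.18 (SE 0.31) and an edgeR adjusted p-value of 0.0484. Vim was at 320 CPM in KO 3, the library with lens transcripts, and at 115 to 148 CPM in the other libraries labelled KO, against 67.0 to 81.0 CPM in WT. Without KO 3 its log2 fold change was 0.82 (edgeR adjusted p-value 0.00161). The call was lost after GC correction, at 1.07 (edgeR adjusted p-value 0.0845), and the edgeR adjusted p-value was 0.0535 by library size alone and 0.0534 with no filter. Vegfa, a vascular growth factor, fell by 0.38 (SE 0.09) on the log2 scale (edgeR adjusted p-value 0.0317) and was lower in each library labelled KO (85.7 to 103 CPM) than in each WT library (123 to 135 CPM). Penk, the precursor of enkephalins, was at 51.4 to 65.8 CPM in WT, at 44.8 to 49.9 CPM in KO 3 and KO 2 and between 11.9 and 31.6 CPM in KO 4 to KO 6, with an edgeR adjusted p-value of 0.155. For KO 4 to KO 6 Penk was called lower, at -1.53 (edgeR adjusted p-value 0.00033), as were 20.5% of all tested genes. It was also called in limma voom with quality weights, at -1.53 (adjusted p-value 0.000605). For KO 2 and KO 3 alone it was at -0.30 (edgeR adjusted p-value 0.234). The gelatinase gene Mmp9 had a log2 fold change of 0.35 (SE 0.16, edgeR adjusted p-value 0.179). For KO 4 to KO 6 Mmp9 was called higher, at 0.51 (edgeR adjusted p-value 0.0046), as were 22.3% of all tested genes. It was also called in limma voom with quality weights, at 0.40 (adjusted p-value 0.0218). For KO 2 and KO 3 alone it was at 0.11 (edgeR adjusted p-value 0.666).

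Of the other immediate early genes, 3 of 15 were called higher and 1 lower. Ier2, a nuclear protein induced together with Fos by serum, rose from 10.6, 9.96 and 8.47 CPM in WT 1 to WT 3 to 15.2, 17.4, 22.7, 23.6 and 20.3 CPM in KO 2 to KO 6, a log2 fold change of 1.04 (SE 0.17, edgeR adjusted p-value 0.00917). It was 0.75 for KO 2 and KO 3 alone, with an edgeR adjusted p-value of 0.0659. Klf10, a TGF-beta-induced repressor, and Csrnp1, an AXIN1-induced factor, had log2 fold changes of 0.83 (SE 0.17) and 0.90 (SE 0.24), and their edgeR adjusted p-values were 0.0239 and 0.0491. The call of Csrnp1 was lost after GC correction, at 0.65 (edgeR adjusted p-value 0.0745), and its edgeR adjusted p-value was 0.0657 by library size alone and 0.0605 with no filter. For KO 2 and KO 3 alone it was at 0.54 (edgeR adjusted p-value 0.301). Btg2, an antiproliferative gene, fell by 0.29 (SE 0.07) on the log2 scale, with an edgeR adjusted p-value of 0.0401, from 91.7 to 98.6 CPM in WT to 73.6 to 81.7 CPM. With no filter its edgeR adjusted p-value was 0.0626. Klf6 and Ier3, the most abundant of the rest, had edgeR adjusted p-values of 0.866 and 0.282, with log2 fold changes of 0.06 (SE 0.18) and 0.24 (SE 0.14). Of the 12 called list genes, all lost the call when WT 2 or WT 3 was left out, and Ccnd1 alone kept it with KO 2 and KO 3 alone against WT. For comparison with the values above, the log2 fold changes without WT 2 and without WT 3 were 1.06 and 0.95 for Ier2, 0.57 and 0.51 for Dusp4 and 0.54 and 0.55 for Ccnd1.

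**Figure D5:**
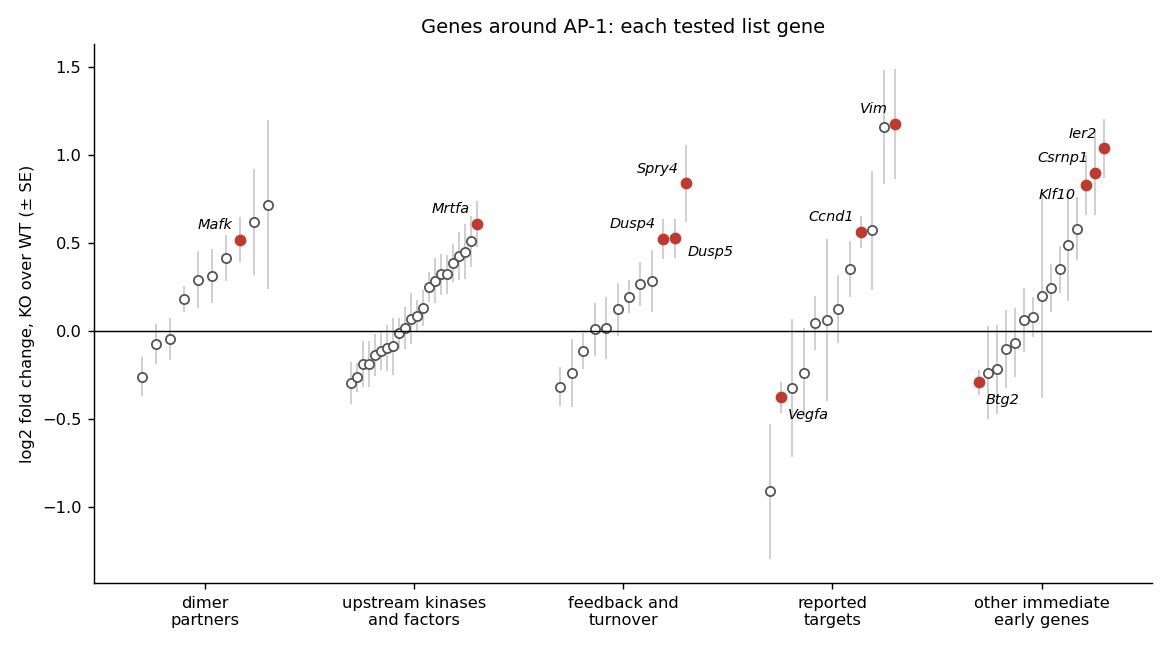
Log2 fold change of the libraries labelled KO over WT with its SE (vertical axis) for each of the 71 tested genes of the 5 lists; filled points are genes with an edgeR adjusted p-value under 0.05 and are named. The called genes lie between -0.38 (Vegfa) and 1.18 (Vim).

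The genes whose profile over the 8 libraries was most like that of Fos or Junb were found by the root mean square difference between log2 CPM profiles, each centred on its own mean, among 15131 autosomal genes. For Fos these were Nr4a1 (0.13), Ctnnal1 (0.15), Nin (0.15), Gm16062 (0.19) and Ttc39aos1 (0.19), against a median of 0.75 over all candidates. Nr4a1, an orphan nuclear receptor that is also an immediate early gene, averaged 17.95 ± 1.71 CPM over WT (SD, n = 3) and 48.0 ± 6.46 CPM over KO 2 to KO 6 (SD, n = 5). Nin, the centrosomal protein ninein, was at 70.5 to 74.7 CPM in WT and 170 to 232 CPM in the libraries labelled KO. For Junb these were Asap3 (0.11), Inppl1 (0.11), Nherf1 (0.12), Prtg (0.12) and Nab2 (0.12), against a median of 0.67. Nab2, a corepressor of the EGR factors, was at 11.3 to 13.6 CPM in WT and 20.2 to 33.7 CPM in the libraries labelled KO. All profiles share the same 8 libraries, so likeness is a description of these samples. Among the members, the closest pairs were Fosl2 with Jund (0.18) and Atf3 with Junb (0.20), and Fos was nearest to Junb (0.26).

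Marker genes of cell types were summed in 15 lists, beside 4.74% of all tested genes called higher and 2.84% called lower. Rod markers were at 36070 to 38900 CPM in WT and 30880 to 46330 CPM in the libraries labelled KO. The 6 endothelial markers summed to 231 to 238 CPM in WT and 282 to 398 CPM in the libraries labelled KO, with 1 of 6 called higher. The 6 microglial markers summed to 22.9 to 25.8 CPM and 28.5 to 40.8 CPM, with 2 of 6 called higher. The 5 pericyte markers summed to 88.7 to 99.9 CPM and 105 to 126 CPM (1 of 5 higher), and the 4 astrocyte markers to 32.5 to 36.9 CPM and 38.7 to 52.2 CPM (0 of 4). Muller glia markers overlapped between the groups, at 3072 to 3259 CPM in WT and 3080 to 4678 CPM in the libraries labelled KO, with 2 of 6 called higher. In the other direction, the 4 horizontal cell markers summed to 114 to 118 CPM in WT and 77.2 to 113 CPM in the libraries labelled KO, with 1 of 4 called lower. The recruited myeloid markers, of which 3 of 5 were in the table and 1 was tested, summed to 4.48 to 4.74 CPM and 2.14 to 3.57 CPM, with none called. Cone markers overlapped, at 726 to 913 CPM and 540 to 741 CPM, with 1 of 5 called higher and 1 lower. The bipolar, amacrine, ganglion cell, pigment epithelium, red blood cell and lens sums overlapped as well, with no marker called, as in the rod list. No marker of these lists was at or under the floor in all libraries. The part of these cell types in the AP-1 values was not tested, and in whole retina fewer or more cells of a type and less or more RNA per cell cannot be told apart.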

How the data were processed

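The authors deposited estimated counts per gene, as whole numbers without normalization, for 26824 genes and 8 libraries. Per the submitters' processing notes, Trim Galore, Salmon 1.10.2, DESeq2 and GRCm38 were used, with no role given. The annotation release, the strand setting and the rounding are not given in the sources used here. Every gene has at least 16 counts in total.

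Counts were scaled by TMM and tested with edgeR 4.0.16 (R 4.3.3, glmQLFit and glmQLFTest) on all 8 libraries without covariates, after filterByExpr, which left 20167 genes. Benjamini-Hochberg adjustment covered every tested gene, and calls needed an adjusted p-value under 0.05. SEs were derived from each log2 fold change and its F statistic. The steps were tested on simulated counts without a split among the libraries labelled KO. Of 200 genes given a 2-fold change, 97 (48.5%) were called, all in the right direction, and 4 other genes were called. A gene that is not called is therefore not shown to be unchanged. Replicates differed by more than sampling noise (chi-square per degree of freedom 5.38 or more). GENCODE M21 (GRCm38) gave positions, lengths and GC content. At most 0.062% of the 31-base words of any member occur in the sense transcript sequence of another gene. Words were not compared with the opposite strand, so overlap with antisense genes is not covered by this value.

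The members and lists were chosen with earlier results of these data known. For the members no p-value is given. Named genes are the members, all called list genes and otherwise the 2 most abundant per list (1 is not reported here), and for Fos and Junb the 5 autosomal genes of at least 1 CPM with the most similar log2 CPM (prior count 2). Alternatives were other scalings, filters and tools, namely DESeq2 1.42.0 and limma 3.58.1 (voom with quality weights per library, called limma voom here). Voom without these weights was not run. Further alternatives were GC offsets by loess, each library left out, KO 2 and KO 3 or KO 4 to KO 6 alone, and a replicate block. The floor of 3 counts covers counting error only. Each library came from 1 mouse, so p-values measure the spread between libraries of separate mice. In the fit of all 8 libraries that spread includes the differences of KO 2 and KO 3 from KO 4 to KO 6 and from each other. The source of these differences was not tested.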

Additional observations from a re-analysis of the deposited data

Results flagged for a closer look

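Gaps within the 5 libraries labelled KO were looked for in 44 values (CPM of the members and named list genes, and marker sums), and 8 passed the limit of 0.71 of the range, where chance, at about 1 in 20 groups, gives 2.2. None was a member. KO 2 stood apart in Mafg (low, 93.3 CPM, gap 0.758 of the range), Vegfa (low, 85.7 CPM, gap 0.789), the Muller glia sum (high, 4678 CPM, gap 0.725), the ganglion cell sum (high, 1165 CPM, gap 0.812) and the red blood cell sum (high, 60.6 CPM, gap 0.857). KO 3 stood apart in Vim (high, 320 CPM, gap 0.838) and the lens sum (high, 42500 CPM, gap 0.996). KO 6 stood apart in Zfp36l2 (high, 185 CPM, gap 0.733).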

How the results depend on the processing

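Every tested member kept its direction under every alternative run, and Fos and Fosl2 moved by less than the SD of the libraries labelled KO in each. The number of genes called was 1529 with 62.5% higher, and 1353 with 41.8% higher by library size alone. It was 1094 with no filter and 3034 with DESeq2, each run on all 26824 genes. With limma voom, which used quality weights per library, it was 8248 of 20167 tested genes. It was 180 of 20201 (0.891%) for KO 2 and KO 3 against WT and 8416 of 19678 for KO 4 to KO 6 against WT. Leaving out 1 library gave 132 (without WT 1) to 3992 (without KO 3) genes, 2 (without WT 1) to 6 (without KO 2 or KO 3) members and 0 (without WT 2 or WT 3) to 22 (without KO 2) of the list genes. The counts of members and list genes stand beside the counts over all genes above. Members called were 3 for KO 2 and KO 3 against WT and 7, Fosl2 and Jund included, with DESeq2 (of 8 tested) and with limma voom (of 7 tested). List genes called were 7 of 75 with no filter, 19 of 75 with DESeq2 and 45 of 71 with limma voom. They were 1 of 71 for KO 2 and KO 3 and 47 of 71 for KO 4 to KO 6. The cause of these changes was not tested.

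Replicate numbers 2 and 3 occur in both groups. Deviations of same-numbered libraries had a correlation of -0.19, so the numbers are not known to pair the samples. With the replicate block over these 4 libraries, 52 genes, 1 member (Fos) and 1 list gene were called, against 14, 1 and 0 without it. The crossed pairing, chosen after seeing the data, called 527 genes, 3 members and 5 list genes.

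Among the named list genes, direction changed in Spred1, Klf6 and Creb1, which edgeR did not call over all 8 libraries. The log2 fold change of Spred1 was -0.032 by library size alone, -0.194 with limma voom and -0.255 for KO 4 to KO 6 (called there, edgeR adjusted p-value 0.00488), and leaving out 1 library gave -0.131 (without KO 2) to 0.095, with -0.031 without KO 3 and -0.004 without WT 1. Klf6 was at -0.136 with limma voom and -0.215 for KO 4 to KO 6, and leaving out 1 library gave -0.055 (without KO 2) to 0.139, with -0.018 without KO 3. Creb1 was called lower for KO 4 to KO 6 (-0.324) and with limma voom (-0.278, adjusted p-value 0.0176), but was at 0.038 with GC offsets, 0.218 for KO 2 and KO 3, 0.210 with the block, 0.217 without it and 0.210 crossed.

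At this depth 3 counts equal 0.119 to 0.169 CPM, which limits Fosl1 alone among the members.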
